A study of Mus musculus with 20 samples.

Results

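The HSP70, HSP90 and J-domain (DNAJ) chaperone genes were followed across treated B16F10 tumours, together with the mitochondrial chaperonin genes and the heat shock factors. Members were taken by gene symbol, namely every Dnaja, Dnajb, Dnajc, Hspa, Hsp90, Hsph1, Hspd1, Hspe1 and Hsf gene, with symbols marked as pseudogenes left out. This gave 71 genes of the 32285 in the table, and 64 of the 71 were expressed highly enough to be tested. The symbol rule also took in Hsf2bp, which encodes a binding partner of heat shock factor 2 and is no chaperone. Bulk RNA was sequenced from tumours of the mouse melanoma line B16F10 grown in immunocompetent wild-type C57BL/6 mice and excised on day 16. Intraperitoneal treatment began when tumours were near 100 mm3, and each of the 4 groups held 5 tumours. The combination group received propafenone and anti-PD-1, the propafenone group received propafenone without the antibody, the anti-PD-1 group received the antibody alone, and the IgG group received control IgG alone. Propafenone is a sodium channel blocker used against cardiac arrhythmia, and anti-PD-1 blocks an inhibitory receptor of T cells. Doses, ages and the schedule of injections are not given in the labels. No label says that the numbered tumours of a group came from separate mice, so p-values measure the spread between these samples.

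HSP70 proteins hold unfolded stretches of other proteins in a cycle driven by ATP. J-domain proteins deliver clients to HSP70 and trigger the cycle, HSP110 proteins exchange the nucleotide, and HSP90 matures kinases and receptors that HSP70 hands on. Several cytosolic members are induced by heat shock factor 1 through heat shock elements, and others are constitutive. Several members of the endoplasmic reticulum (ER) are instead induced by the unfolded protein response through ER stress response elements. Tumour cells often depend on both branches.

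Promoters of 55 members could be matched to RefSeq windows (build GRCm38.p6) running from 250 bases before to 50 bases after the gene's start. The ER stress response element, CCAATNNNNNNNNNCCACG on either strand, was found in 3 of the 55, which were Hspa5, Hsp90b1 and Dnajc3, and in 0.137% of all 27025 genes with a window. These 3 windows are shown because the same 3 genes are described together below among the ER chaperones. The Hspe1 window is shown because it lies where Hspe1 and Hspd1, the genes of the chaperonin, meet head to head. Capitals mark the ER stress response element in Hspa5, Hsp90b1 and Dnajc3 and the heat shock element, GAANNTTCNNGAA on either strand, in Hspe1.
Hspa5: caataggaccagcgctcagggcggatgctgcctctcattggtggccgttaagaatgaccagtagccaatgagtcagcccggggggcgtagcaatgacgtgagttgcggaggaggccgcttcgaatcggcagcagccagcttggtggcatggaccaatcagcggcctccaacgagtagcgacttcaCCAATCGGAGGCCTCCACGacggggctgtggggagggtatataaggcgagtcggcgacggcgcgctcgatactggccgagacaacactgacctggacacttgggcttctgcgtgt
Hsp90b1: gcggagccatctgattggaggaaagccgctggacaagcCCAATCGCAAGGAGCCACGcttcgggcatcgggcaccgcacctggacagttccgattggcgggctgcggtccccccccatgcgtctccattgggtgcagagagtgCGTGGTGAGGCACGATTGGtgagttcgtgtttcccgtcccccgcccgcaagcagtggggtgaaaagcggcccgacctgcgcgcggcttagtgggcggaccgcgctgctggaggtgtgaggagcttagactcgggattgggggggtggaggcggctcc
Dnajc3: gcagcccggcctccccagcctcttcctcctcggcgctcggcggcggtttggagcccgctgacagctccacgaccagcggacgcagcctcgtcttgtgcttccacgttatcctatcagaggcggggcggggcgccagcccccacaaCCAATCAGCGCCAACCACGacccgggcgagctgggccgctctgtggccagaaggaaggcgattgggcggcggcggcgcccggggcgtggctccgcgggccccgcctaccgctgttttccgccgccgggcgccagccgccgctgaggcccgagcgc
Hspe1: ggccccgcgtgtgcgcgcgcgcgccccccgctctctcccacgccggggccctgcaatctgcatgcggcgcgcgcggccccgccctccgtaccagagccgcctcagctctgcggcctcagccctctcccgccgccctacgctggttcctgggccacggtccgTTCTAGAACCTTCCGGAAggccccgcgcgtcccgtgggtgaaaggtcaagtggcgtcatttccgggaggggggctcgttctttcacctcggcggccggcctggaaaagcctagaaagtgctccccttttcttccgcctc

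The Hspa5 window is chr2:34771840-34772139 on the plus strand, and its element begins 65 bases before the start. The Hsp90b1 window is chr10:86705395-86705694 on the minus strand, with elements beginning 212 and 107 bases before the start, the nearer of them in the reverse orientation. The Dnajc3 window is chr14:118937682-118937981 on the plus strand, with its element 105 bases before the start. The Hspe1 window is chr1:55087898-55088197 on the plus strand and holds 2 overlapping heat shock elements, which begin 89 and 84 bases before the start. Hspd1 and Hspe1 lie on opposite strands, and their gene models in GENCODE M21 overlap head to head, with outermost starts 111 bases apart, so reads in the overlap may be shared. The heat shock element was found in 4 of the 55 members with a window, which were Hspd1, Hspe1, Hsph1 and Dnajb6, and in 0.662% of all genes with a window. The Hspd1 window that held it, chr1:55087883-55088182, covers nearly the same bases as the Hspe1 window, so these genes share their elements. The windows of the heat-inducible genes Hspa1a, Hspa1b and Dnajb1 held none. Shorter motifs were also searched on both strands. The unfolded protein response element TGACGTGG was found in 1 of the 55 and in 0.714% of all genes with a window, TATAAA in 2 and 15.7%, and CCAAT, whose letters are also part of the ER stress response element, in 27 and 41.1%. A match describes letters only.

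Library totals lay between 55985437 and 64514815 counts. All 10 melanocyte markers were detected in every group, and their summed level was between 14508 and 23634 CPM (counts of a gene scaled to a common library total) in the 20 tumours. Markers of other cells differed between groups. The summed level of 20 skeletal muscle genes had a lowest, median and highest value of 66.7, 584 and 704 CPM in combination tumours, 48.0, 101 and 116 CPM in propafenone tumours, 26.7, 249 and 406 CPM in anti-PD-1 tumours, and 23.7, 35.8 and 132 CPM in IgG tumours. In the same order of lowest, median and highest, the sum of 12 macrophage genes was 214, 355 and 468 CPM in combination tumours, 64.8, 129.7 and 207 CPM in propafenone tumours, 129, 213 and 243 CPM in anti-PD-1 tumours, and 41.8, 57.8 and 191 CPM in IgG tumours. The sum of 9 fibroblast genes was 551, 597 and 1278 CPM in combination tumours, 127, 233 and 276 CPM in propafenone tumours, 283, 402 and 979 CPM in anti-PD-1 tumours, and 154, 215 and 537 CPM in IgG tumours. The 6 red blood cell genes had 172, 328 and 452 CPM in combination tumours, 769, 1247 and 6587 CPM in propafenone tumours, 307, 441 and 5769.9 CPM in anti-PD-1 tumours, and 290.2, 889 and 11680 CPM in IgG tumours. Macrophage and fibroblast sums were thus highest by median in combination tumours, and the red blood cell sum lowest. Of all these markers only 2 keratinocyte genes, in the IgG group, were at 0 throughout a group. T cell markers (7 genes) summed to at most 11.2 CPM in combination, 8.17 CPM in propafenone, 5.93 CPM in anti-PD-1 and 4.71 CPM in IgG tumours. Keratinocyte markers (7 genes) summed to at most 32.6 CPM in combination, 21.9 CPM in propafenone, 89.4 CPM in anti-PD-1 and 2.55 CPM in IgG tumours, and the highest sum was that of anti-PD-1 replicate 3. The chaperone results were refitted with the muscle score and without tumours rich in red blood cell RNA. Muscle gene levels differed with treatment, so the fit with the score cannot tell muscle content from treatment. The part of the other cells was not tested. In these bulk samples, fewer cells of a type and less RNA per cell cannot be told apart.

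Among the chaperones themselves, 4 tumours stood apart, namely propafenone replicates 3 and 5, anti-PD-1 replicate 3 and IgG replicate 2. They held between 63.9 and 78.2 CPM of Hsph1, against 141 to 465 CPM in the other 16. For 9 members the range in these 4 tumours did not overlap the range in the other 16, with 7 lower and 2 higher in the 4. Among all 15875 tested genes, 4.53% lay wholly lower and 4.03% wholly higher in the 4, so the split reached far beyond the chaperones. Hsph1, Hspa8, Dnaja1, Hsf1, Dnajb2, Dnajc28 and the HSP70-like gene of endothelium Hspa12b lay lower in the 4, whereas Dnajc5 and Dnajb6 lay higher. Dnajc5, which encodes the cysteine string protein of secretory vesicles, had 338 to 380 CPM in the 4 tumours and 174 to 280 CPM in the other 16. No combination tumour was among the 4. The 4 were picked out on these values, so the differences are described without a test.

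Per transcript length, the most abundant member was Hsp90ab1, the constitutive cytosolic HSP90. It averaged 2599 TPM (the deposited length-scaled values) in combination, 2504 in propafenone, 2429 in anti-PD-1 and 2504 in IgG tumours. Hspa8, the constitutive cytosolic HSP70, came next at 2436, 1934, 2062 and 1864 TPM in the same order of groups. Hspd1, the mitochondrial chaperonin, followed at 1647, 1508, 1528 and 1421 TPM. The inducible HSP90 gene Hsp90aa1 had 1400, 1221, 1175 and 1092 TPM. The ER chaperones Hsp90b1 (GRP94) and Hspa5 (BiP) had 758 ± 87.3 and 741 ± 61.8 TPM in IgG tumours (SD, n = 5). The heat-induced HSP70 genes were low in comparison, with 2.48 TPM of Hspa1a and 11.3 TPM of Hspa1b in IgG tumours. These 2 genes are near-identical neighbours on chromosome 17, so the division of reads between them is uncertain. All 71 members together made up 14209 ± 763 TPM in combination, 12869 ± 844 TPM in propafenone, 12767 ± 2099 TPM in anti-PD-1 and 12127 ± 372 TPM in IgG tumours (SD, n = 5 each), between 1.42% and 1.21% of all transcripts as group means. The 7 members that were not tested were Dnajb3, Dnajb7, Dnajb8, Dnajc5b, Dnajc5g, Hsf3 and Hsf5. None of them exceeded 0.287 CPM in any tumour, and Hsf3 was at 0 in all of them.

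**Figure D1:**
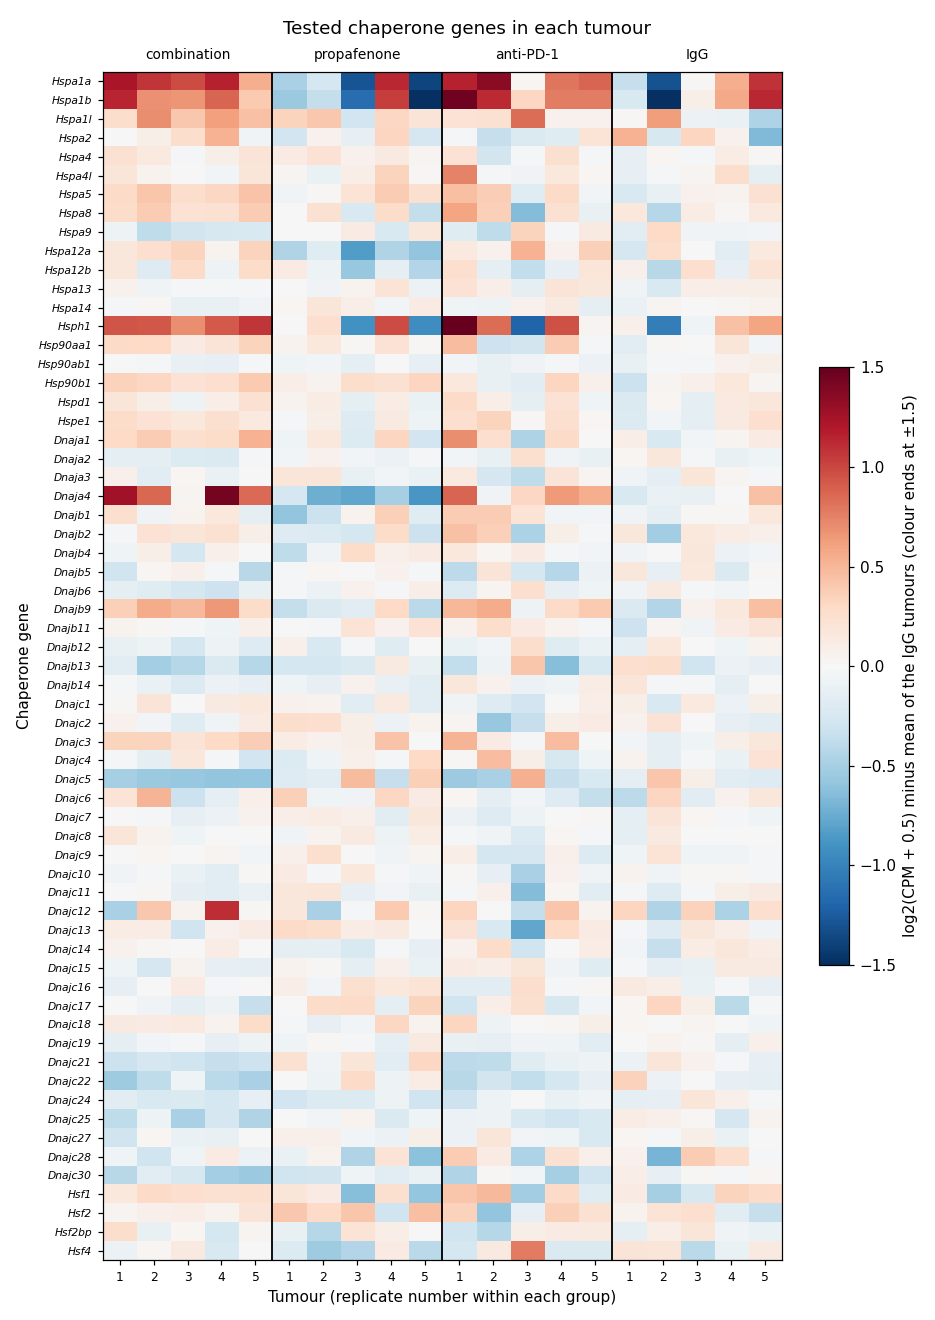
Each row is a tested gene (all but 1 of the 64 are drawn) and each column 1 tumour. Colour gives log2(CPM + 0.5) minus the mean of the IgG tumours, from blue (lower) to red (higher). Dnaja4 and Hsph1 are red in most combination tumours, and propafenone 3 and 5, anti-PD-1 3 and IgG 2 share blue cells at Hsph1, Hspa8, Dnaja1 and Hsf1.

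The combination was compared with control IgG to find which chaperone genes differed after both treatments. Dnaja4, a cytosolic J-domain gene, was higher, and the J-domain genes Dnajc22, Dnajc25 and Dnajc30 were lower. These were 4 of the 64 tested members (1 higher, 3 lower) at an adjusted p below 0.05 by the quasi-likelihood test of edgeR, a share to be read against 4.88% of all 15875 genes tested (2.24% higher, 2.63% lower). The median log2 fold change was -0.00056 over the members and -0.012 over all genes, and 32 members lay above 0 and 32 below. With libraries scaled by their totals alone, the called members were 4 higher and 0 lower, since Dnaja4 was joined by Hsp90b1, Hspa5 and Dnajc3 and the 3 lower calls were lost.

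Dnaja4 (ENSMUSG00000032285, chr9:54698873-54716315, plus strand, GENCODE M21 on GRCm38) had 2.70, 1.92, 0.871, 3.11 and 1.9 CPM in combination tumours 1 to 5. It had 0.620, 0.299, 0.276, 0.446 and 0.228 CPM in propafenone tumours, 1.95, 0.787, 1.15, 1.58 and 1.45 CPM in anti-PD-1 tumours, and 0.638, 0.742, 0.730, 0.835 and 1.31 CPM in IgG tumours. Combination tumour 3 lay within the IgG range and the other 4 lay above it, while all propafenone tumours lay below every IgG tumour. Against IgG, Dnaja4 was 2.47-fold higher in combination tumours (log2 fold change 1.30, SE 0.341, edgeR adjusted p = 0.0350). Combination tumour 3 also had the lowest muscle gene sum of its group, 66.7 CPM, beside 533 to 704 CPM in the other 4. With the muscle score of each tumour as a covariate, the log2 fold change of Dnaja4 was 0.45 and its edgeR adjusted p was 0.695. Muscle gene levels differed between the 2 groups, so that fit cannot tell muscle content from treatment. The call was also lost in 9 of the 10 fits that left out 1 combination or IgG tumour, with log2 fold changes between 1.12 and 1.53 and edgeR adjusted p between 0.0309 and 0.0939.

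**Figure D2:**
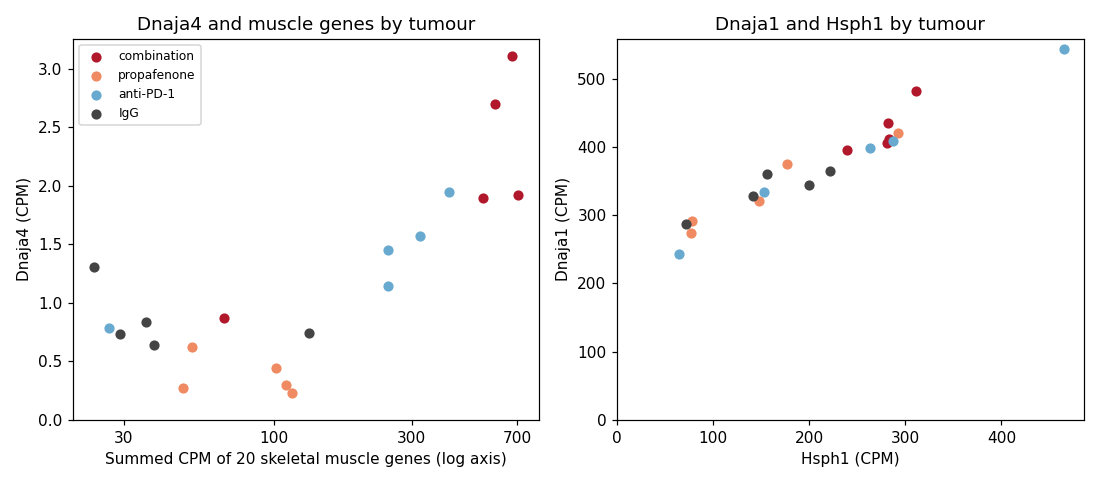
Left, Dnaja4 (CPM) against the summed CPM of 20 skeletal muscle genes on a log axis. Right, Dnaja1 against Hsph1, both in CPM. Each point is 1 of the 20 tumours, coloured by group. Dnaja4 was highest in combination tumours 4 and 1 (3.11 and 2.70 CPM), with muscle sums of 668 and 584 CPM. Anti-PD-1 tumour 1 came next (1.95 CPM), with a sum of 406 CPM. Propafenone tumours lay lowest, at sums of 48.0 to 116 CPM. IgG tumours had muscle sums of 23.7 to 132 CPM. Their Dnaja4 of 0.638 to 1.31 CPM lay above that of every propafenone tumour.

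Dnajc25, which encodes a transmembrane J-domain protein, had 28.7, 35.5, 26.7, 31.6 and 27.4 CPM in combination tumours and 40.6, 39.8, 38.0, 31.6 and 39.0 CPM in IgG tumours. IgG tumour 4 lay among the combination tumours and the other IgG tumours lay above them. Its log2 fold change was -0.33 (SE 0.0883, edgeR adjusted p = 0.0371). Dnajc22, also a membrane J-domain gene, whose fly counterpart acts in clathrin-mediated uptake, had 24.6, 27.4, 34.2, 26.7 and 25.4 CPM in combination tumours and 45.4, 33.5, 36.0, 32.8 and 32.3 CPM in IgG tumours. Only combination tumour 3 reached into the IgG range, and the log2 fold change was -0.38 (SE 0.107, edgeR adjusted p = 0.0464). Dnajc30, a mitochondrial J-domain gene tied to respiratory chain function, had 17.3, 20.7, 19.6, 16.1 and 15.6 CPM in combination tumours and 24.9, 21.3, 23.6, 22.7 and 23.7 CPM in IgG tumours. These ranges did not overlap, and the log2 fold change was -0.38 (SE 0.107, edgeR adjusted p = 0.0464). The 3 lower calls were small, between 0.768 and 0.794 of the IgG level, and all 3 were lost with size factors of DESeq2 type in edgeR, with library totals and with limma on log2(TPM + 1).

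Dnajc21, a ribosome biogenesis factor, narrowly missed the threshold. It had 45.5, 47.8, 46.0, 44.8 and 45.6 CPM in combination tumours and 53.4, 64.4, 59.5, 55.6 and 52.3 CPM in IgG tumours, with no overlap (log2 fold change -0.31, edgeR adjusted p = 0.0509). Dnajc5 had 187, 178, 178, 174 and 176 CPM in combination tumours and 238, 350, 280, 235 and 231 CPM in IgG tumours. All combination values lay below all IgG values, with a log2 fold change of -0.58 and an edgeR adjusted p of 0.0734. Of the 26 tested DNAJC genes, 17 lay below 0 and 9 above, with a median log2 fold change of -0.063, and 3 were called lower. Of all tested genes 51.8% lay below 0.

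**Figure D3:**
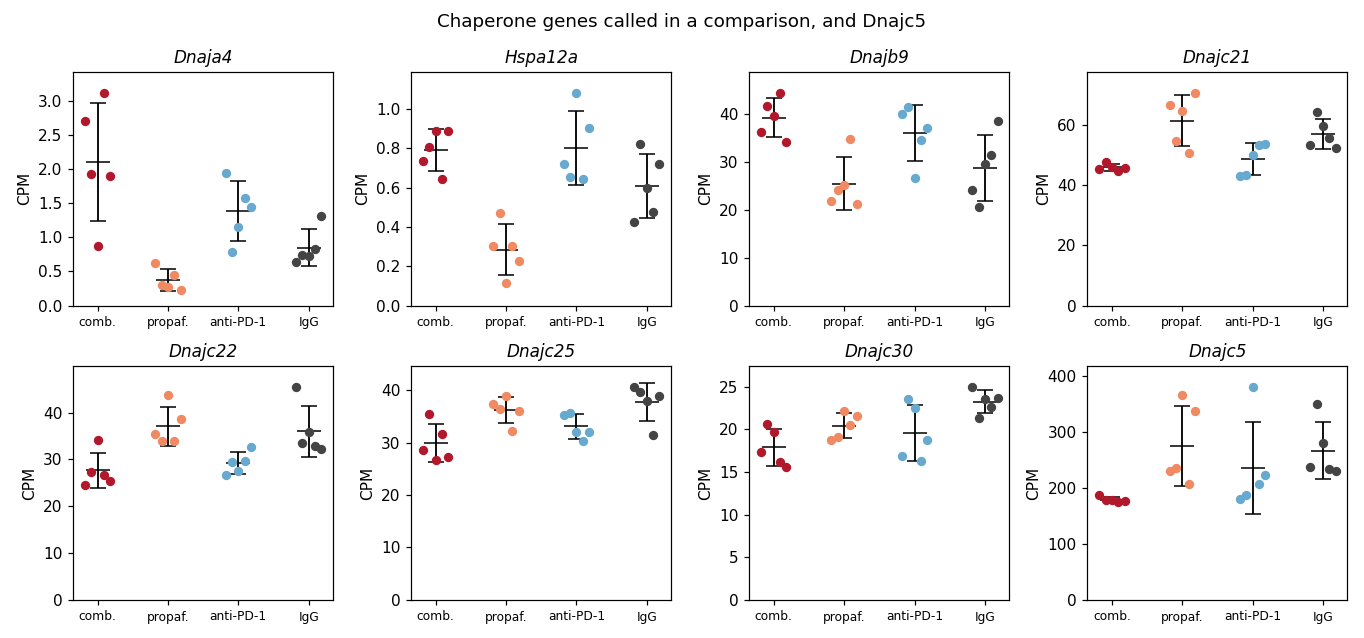
CPM of the 7 genes called in a comparison and of Dnajc5, with 1 point per tumour. Bars are the mean and SD of 5 tumours in the combination (comb.), propafenone (propaf.), anti-PD-1 and IgG groups. Dnaja4 and Hspa12a are lowest in propafenone tumours, and the 5 combination tumours of Dnajc5 lie between 174 and 187 CPM.

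Among the ER chaperones, 3 genes of BiP and its partners lay above IgG in every tumour without passing the threshold. Hspa5, the HSP70 of the ER, had 1305, 1422, 1285, 1321 and 1442 CPM in combination tumours and 914, 988, 1113, 1106 and 1254 CPM in IgG tumours. Hsp90b1, the HSP90 of the ER, had 1337, 1305, 1218, 1249 and 1382 CPM in combination tumours and 841, 1084, 1109, 1176 and 1084 CPM in IgG tumours. Dnajc3, an ER co-chaperone of BiP that also restrains the kinase PERK, had 227, 227, 207, 223 and 233 CPM in combination tumours and 176, 162, 172, 192 and 203 CPM in IgG tumours. In each of these 3 genes every combination tumour lay above every IgG tumour. Their log2 fold changes were 0.33, 0.29 and 0.30, and their edgeR adjusted p values of 0.0783, 0.0651 and 0.0814 missed the threshold. These are also the 3 members whose promoter windows held the ER stress response element printed above. A link between the element and these levels was not tested. Dnajb9, a J-domain partner of BiP that restrains the sensor IRE1, had a log2 fold change of 0.45 with an edgeR adjusted p of 0.0976. Dnajb11, another J-domain partner of BiP in the ER, and Hspa13, a microsomal HSP70, had log2 fold changes of -0.0019 and -0.016 with edgeR adjusted p of 0.992 and 0.923. Over the 12 genes of the ER list, 6 lay above 0 and 6 below, with a median log2 fold change of 0.049. By edgeR, Dnajc25 of the same list was called lower and 0 were called higher. DESeq2 called 4 of the 12 higher and 1 lower, against 5% and 3.94% of all genes it tested in this comparison. With limma voom, 0 were called higher and 1 lower, against 3.23% and 2.94% of all genes.

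A list of 12 genes of the cytosol or mitochondria is called heat-inducible here. It held Hsph1, Hspa1a, Hspa1b, Hspa4, Hspa4l, Hspa8, Hsp90aa1, Hsp90ab1, Dnaja1, Dnajb1, Hspd1 and Hspe1. Hspa8 and Hsp90ab1 on it are the constitutive genes described above, so the list is not a pure readout of heat shock. No gene of the list passed the threshold, although 11 of the 12 lay above 0, with a median log2 fold change of 0.22. Of all tested genes 51.8% lay below 0. The listed genes vary together from tumour to tumour, as described below, so they are not separate observations. By unadjusted p below 0.05, edgeR counted 3 of the 12, beside 23.6% of all tested genes, and DESeq2 and limma voom called 0. Hsph1, an HSP110 nucleotide exchange factor, had 283, 282, 239, 281 and 311 CPM in combination tumours, 147, 176, 78.2, 292 and 77.1 CPM in propafenone tumours, 465, 264, 63.9, 287 and 152 CPM in anti-PD-1 tumours, and 156, 71.6, 141, 200 and 222 CPM in IgG tumours. The combination tumours lay close together and above all IgG tumours, whereas the anti-PD-1 tumours spanned the widest range. The log2 fold change against IgG was 0.82 (SE 0.438, edgeR adjusted p = 0.268). Hspa8 had 2761, 2959, 2654, 2674 and 2969 CPM in combination tumours and 2532, 1691, 2459, 2305 and 2519 CPM in IgG tumours. Dnaja1, a cytosolic J-domain partner of Hspa8, had 412, 436, 396, 406 and 481 CPM in combination tumours and 361, 287, 327, 344 and 365 CPM in IgG tumours. Neither gene's ranges overlapped, and their log2 fold changes were 0.28 and 0.34 with edgeR adjusted p of 0.328 and 0.179.

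Hspa1a had 8.10, 7.21, 6.72, 7.68 and 4.86 CPM in combination tumours and 2.39, 0.984, 3.22, 4.86 and 7.31 CPM in IgG tumours. The groups overlapped, and the log2 fold change of 0.88 had an edgeR adjusted p of 0.298. Hspa1b, its near-identical neighbour, had a log2 fold change of 0.54 (SE 0.482). Hsp90aa1 and Hsp90ab1 differed by 0.25 and -0.061 on the log2 scale, with edgeR adjusted p of 0.204 and 0.472. Hspd1 and its co-chaperonin Hspe1 differed by 0.098 and 0.20, with edgeR adjusted p of 0.532 and 0.165. Hspa4, an HSP110 gene, differed by 0.13, and Dnajb1, the J-domain gene most used as a readout of heat shock, by 0.056 (SE 0.136). In the mitochondrion, 8 of 10 genes lay below 0, beside 51.8% of all tested genes. Hspa9, the mitochondrial HSP70, had a log2 fold change of -0.25 and an edgeR adjusted p of 0.188.

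A further 8 members overlapped IgG and did not pass. Dnaja2, a cytosolic partner of Hspa8, had 131, 130, 124, 123 and 140 CPM in combination tumours and 146, 161, 141, 133 and 137 CPM in IgG tumours. The ranges overlapped, and the log2 fold change of -0.15 had an edgeR adjusted p of 0.205. Dnajb4, a heat-responsive relative of Dnajb1, and Dnajb5 had log2 fold changes of -0.033 and -0.13, with edgeR adjusted p of 0.879 and 0.603. Dnaja3 and Dnajc15, J-domain genes of the mitochondrion, had -0.035 and -0.11, with edgeR adjusted p of 0.869 and 0.467. Hspa2, the HSP70 best known from the testis, had 0.13 (SE 0.192), and the HSP110 gene Hspa4l had 0.073 (SE 0.131). Hspa1l, next to Hspa1a and Hspa1b on chromosome 17, had 1.24 to 1.85 CPM in combination tumours and 0.553 to 1.73 CPM in IgG tumours, with a log2 fold change of 0.63 and an edgeR adjusted p of 0.188.

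For 7 members every combination tumour lay above every IgG tumour (Hspa5, Hsp90b1, Dnajc3, Hsph1, Hspa8, Dnaja1 and Dnajc18), and 4.72% of all tested genes did so. For 4 members every combination tumour lay below (Dnajb6, Dnajc5, Dnajc21 and Dnajc30), against 7.23% of all tested genes. Dnajb6, a J-domain gene that restrains aggregation of polyglutamine proteins, had 134, 130, 123, 119 and 137 CPM in combination tumours and 143, 163, 146, 144 and 147 CPM in IgG tumours, with a log2 fold change of -0.20.

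**Figure D4:**
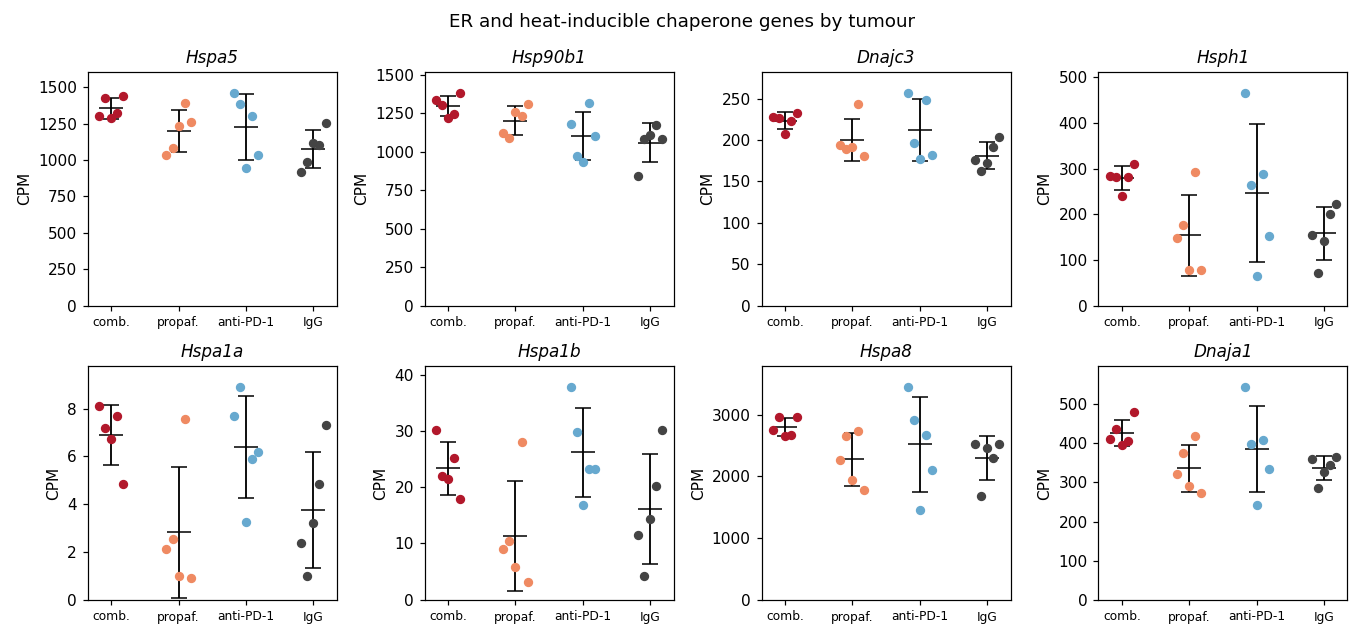
CPM of 3 ER chaperone genes (Hspa5, Hsp90b1, Dnajc3) and 5 genes of the list called heat-inducible (Hsph1, Hspa1a, Hspa1b, Hspa8, Dnaja1), with 1 point per tumour. Hspa8 is constitutive. Bars are the mean and SD of 5 tumours a group. Hsph1 lies between 239 and 311 CPM in combination tumours and between 63.9 and 465 CPM in anti-PD-1 tumours.

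None of the 3 tested heat shock factors passed the threshold in edgeR, DESeq2 or limma voom, and edgeR found 0 of the 3 at unadjusted p below 0.05 in this comparison. Hsf1, the main heat shock factor, had 65.9, 72.2, 70.5, 69.5 and 69.6 CPM in combination tumours, 67.3, 64.5, 37.6, 70.0 and 39.3 CPM in propafenone tumours, 79.2, 82.8, 41.0, 72.2 and 51.8 CPM in anti-PD-1 tumours, and 64.2, 41.8, 49.9, 74.3 and 72.1 CPM in IgG tumours. The lowest values were those of the 4 tumours with low Hsph1, and the groups overlapped. Against IgG, combination tumours had a log2 fold change of 0.20 (SE 0.203) and an edgeR adjusted p of 0.575. Hsf2 and Hsf4, a second stress factor and the factor of the lens, differed by 0.077 and -0.041, and neither passed.

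Co-variation of the heat-inducible genes from tumour to tumour was read within groups. With group means removed from log2 values, 64 of 66 pairs of the 12 genes had a Pearson r above 0 over the 20 tumours, with a median r of 0.522. After Benjamini-Hochberg adjustment over the 66 pairs, 25 passed by both Pearson and Spearman permutation tests (100000 permutations within groups). The same counts were not made over all genes, so no background share stands beside them. Dnaja1 and Hsph1 had r = 0.950 and rho = 0.926 (permutation p = 1e-05, the smallest these permutations can give, adjusted to 0.00016 for r and 0.00022 for rho), and r was 0.922 without the 2 tumours farthest from the median. Dnaja1 and Hspa8 had r = 0.956 and rho = 0.935 (same permutation p and adjusted values), and r was 0.914 without the 2 farthest. Hspd1 and Hspe1, the head-to-head pair, had r = 0.826 and rho = 0.788 (permutation p = 0.00030 and 0.00057, adjusted to 0.0016 and 0.0027), and r was 0.769 without the 2 farthest. Each of these 3 relations had r above 0 within all 4 groups. Hspa1a and Hspa1b had r = 0.968 and rho = 0.968 (permutation p = 1e-05, adjusted to 0.00016 and 0.00022), and r was 0.940 without the 2 farthest. This pair is among the 25, but the division of reads between these near-identical genes is uncertain. Its r and p may therefore be set by shared reads, which was not tested. Dnajb1 was the exception on the list, and none of its 11 pairs passed. Hsph1, Dnaja1 and Hspa8 are 3 of the 9 members on which the 4 tumours stand apart. Leaving out 2 tumours keeps part of that split, and the pairs were not measured without all 4. Genes outside the families followed Hsph1 as closely. Of the 20 genes with the highest r to Hsph1, measured in the same way, 2 were members, namely Dnaja1 and Hspa8 at ranks 17 and 18 (r = 0.950 each), and no further member was among the first 100. The closest gene was Il10rb (r = 0.977), a cytokine receptor subunit, followed by Chordc1 (r = 0.973), which encodes an HSP90 co-chaperone. For Dnaja4, measured in the same way, no member was among the first 100 genes. Its closest gene was Zbtb41 (r = 0.816). Its first 20 also held the striated muscle genes Srl, Ankrd1, Ldb3 and Actc1 (r = 0.777, 0.765, 0.741 and 0.734). None of the 20 skeletal muscle genes summed above was among them. Whether muscle content sets these relations was not tested.

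Propafenone was compared with IgG to see the drug alone. No member was called, as for all 15875 genes (0% by edgeR, with 754 genes or 4.75% at unadjusted p below 0.05). DESeq2 called 0 members and 3 genes in all, and limma voom called 0. At unadjusted p below 0.05, edgeR found 3 members, all lower. Dnaja4 had a log2 fold change of -1.18 (SE 0.352) and an edgeR adjusted p of 0.913, and all its propafenone values lay below its IgG values, as for 0.706% of all tested genes. Hspa12a, which encodes a divergent HSP70-like protein, had 0.302, 0.472, 0.114, 0.303 and 0.228 CPM in propafenone tumours and 0.425, 0.823, 0.597, 0.477 and 0.718 CPM in IgG tumours. Propafenone tumour 2 reached into the IgG range, and the log2 fold change was -1.09 (SE 0.320, edgeR adjusted p = 0.913). Dnajc24, a J-domain gene of the diphthamide pathway, was the third at -0.23. Among members above 0, the smallest p values were those of Hsp90b1 (log2 fold change 0.18), Hsf2 (0.26) and Dnajc16 (0.13), each with an edgeR adjusted p of 0.913. Heat-inducible genes lay on both sides of 0, with 4 of 12 above, and Hsph1 differed by -0.036 (SE 0.436). Of all tested genes 49.1% lay below 0.

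Anti-PD-1 alone was compared with the same IgG tumours, which both comparisons therefore share. No member was called, as for all genes (0% by edgeR, with 1203 genes or 7.58% at unadjusted p below 0.05). DESeq2 called 0 members and 21 genes in all, and limma voom called 0. At unadjusted p below 0.05, edgeR found 5 members. Dnajc22, Dnajc21, Dnajc25 and Dnajc30, each called lower in combination tumours against IgG or propafenone tumours, had log2 fold changes of -0.30, -0.23, -0.19 and -0.25, and Dnajc3 had 0.23, with edgeR adjusted p between 0.497 and 0.643. Dnajc22 had 26.7, 29.4, 27.5, 29.7 and 32.7 CPM in anti-PD-1 tumours, and the highest of them lay just inside the IgG range. Dnaja4 had a log2 fold change of 0.70 (SE 0.339, edgeR adjusted p = 0.661), and Dnajb9 one of 0.32 (SE 0.159, edgeR adjusted p = 0.663). Of the 12 heat-inducible genes 11 lay above 0, with a median log2 fold change of 0.18, and the values of single tumours spread widely, as for Hsph1. Of all tested genes 50.3% lay below 0. Of the 26 tested DNAJC genes, 19 lay below 0 in this comparison, with a median log2 fold change of -0.081. In propafenone against IgG, 9 of the 26 lay below 0, beside 49.1% of all tested genes.

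The combination was compared with propafenone alone to see what anti-PD-1 added to the drug. Dnaja4, Hspa12a and Dnajb9 were higher and Dnajc21 and Dnajc22 were lower, 5 of 64 members by edgeR, against 3.88% of all genes (1.67% higher, 2.21% lower). Dnaja4 was 5.59-fold higher (log2 fold change 2.48, SE 0.358, edgeR adjusted p = 0.0047), and its lowest combination value of 0.871 CPM lay above its highest propafenone value of 0.620 CPM. Hspa12a had 0.738, 0.805, 0.887, 0.641 and 0.890 CPM in combination tumours, all above the propafenone tumours (log2 fold change 1.47, SE 0.320, edgeR adjusted p = 0.0261). Dnajb9 had 36.4, 41.7, 39.7, 44.5 and 34.3 CPM in combination tumours and 21.8, 24.2, 25.2, 34.9 and 21.2 CPM in propafenone tumours, and only propafenone tumour 4 reached into the combination range. Its log2 fold change was 0.63 (SE 0.159, edgeR adjusted p = 0.0368).

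Dnajc21 had 66.5, 54.8, 64.8, 50.7 and 70.6 CPM in propafenone tumours, all above its combination values (log2 fold change -0.42, SE 0.0907, edgeR adjusted p = 0.0261). Dnajc22 had 35.5, 34.0, 43.7, 33.9 and 38.6 CPM in propafenone tumours, where 2 tumours fell just under the highest combination value (log2 fold change -0.43, SE 0.107, edgeR adjusted p = 0.0367). Hspa1a and Hspa1b had log2 fold changes of 1.29 and 1.05 with edgeR adjusted p of 0.137 and 0.204, and propafenone tumour 4 lay inside the combination range for both. Heat-inducible genes lay above 0 for 11 of 12, with a median log2 fold change of 0.19, where 51.0% of all tested genes lay below 0. Of these 12, edgeR and DESeq2 called 0, and limma voom called 1 higher, beside 3.33% of all genes. By ranges, 4 members did not overlap and were higher (Dnaja4, Hspa12a, Dnajc14 and Hspe1, against 3.65% of all genes) and 3 were lower (Dnajb6, Dnajc5 and Dnajc21, against 4.88%). With libraries scaled by their totals, 3 members were called higher and 0 lower.

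The Dnaja4 call against propafenone passed with the muscle score as a covariate (log2 fold change 1.88, edgeR adjusted p = 0.0228) and in all 10 fits that left out 1 tumour (log2 fold changes 2.30 to 2.75). Muscle gene levels differed between these groups too, so the fit with the score cannot tell muscle content from treatment. Another alternative left out the 4 tumours below 100 CPM of Hsph1, was chosen after seeing the data and left 3 propafenone tumours. There the log2 fold change of Dnaja4 was 2.23 and its edgeR adjusted p was 0.151. That fit called 0 of the 64 members, and 1 gene of all tested, in this comparison. Those tumours were left out for their chaperone levels, so this fit is no independent check.

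The combination was also compared with anti-PD-1 alone to see what propafenone added to the antibody. No member was called, as for all genes (0% by edgeR, with 1552 genes or 9.78% at unadjusted p below 0.05). DESeq2 called 0 members and 7 genes in all, and limma voom called 0. At unadjusted p below 0.05, edgeR found 5 members, with Hsp90b1 (log2 fold change 0.24) and the ER J-domain gene Dnajc1 (0.19) above 0 and Dnajb6 (-0.19), Dnajc5 (-0.40) and Hspa9 (-0.24) below. For Dnaja4 the log2 fold change was 0.60 (SE 0.334) and the edgeR adjusted p was 0.558. The ranges of the 2 groups overlapped for all 64 members, whereas 1.15% of all tested genes lay wholly higher and 1.23% wholly lower in combination tumours.

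Whether the effect of propafenone depended on anti-PD-1 was asked with the interaction of the treatments. No member and no gene passed by edgeR (0%, with 482 genes or 3.04% at unadjusted p below 0.05), DESeq2 called 0 members and 2 genes, and limma voom called 0. Dnaja4 and Hspa12a had the smallest p values of the members, with log2 differences of 1.78 (SE 0.485) and 1.08 (SE 0.442), and an edgeR adjusted p of 0.990 for each. Dnajc1 followed above 0 (0.20), and Dnajb6 (-0.19), Dnajc5 (-0.45) and Hspa9 (-0.25) had the smallest p below 0. Dnaja4 averaged 2.10 ± 0.861 CPM in combination, 0.374 ± 0.160 CPM in propafenone, 1.38 ± 0.439 CPM in anti-PD-1 and 0.851 ± 0.265 CPM in IgG tumours (SD, n = 5 each). These comparisons share samples and are not independent of one another.

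Partner genes outside the families were read from a list of 50 co-chaperones and other chaperones. In combination against IgG tumours, 6 of the 50 were lower and 0 higher by edgeR, with a median log2 fold change of -0.096 over the list, to be read against the 2.63% lower and 2.24% higher of all genes. The lower genes were the co-chaperones Sgta, Sugt1 and Bag2, the prefoldin subunits Pfdn1 and Vbp1, and Tcp1, a subunit of the cytosolic chaperonin. Prefoldin hands new actin and tubulin chains to that chaperonin. Most listed subunits of both were not called by edgeR in this comparison. These were the chaperonin subunits Cct2, Cct3, Cct4, Cct5, Cct6a, Cct7 and Cct8, and the prefoldin subunits Pfdn2, Pfdn4, Pfdn5 and Pfdn6. Tcp1 averaged 613 ± 18.4 CPM in combination and 724 ± 37.1 CPM in IgG tumours (SD, n = 5 each), with a log2 fold change of -0.24 and an edgeR adjusted p of 0.0273. Against propafenone, Pfdn1, Sugt1, Bag2 and Tcp1 were lower in combination tumours, 4 of 50, against 2.21% of all genes. In combination against IgG tumours, DESeq2 called 2 higher and 6 lower (5% and 3.94% of all genes), and limma voom 1 higher and 6 lower (3.23% and 2.94%). In combination against propafenone tumours, DESeq2 called 2 higher and 7 lower (4.74% and 4.87% of all genes), and limma voom 1 higher and 5 lower (3.33% and 2.58%). No gene of the list was called by edgeR, DESeq2 or limma voom in the other 4 comparisons. At unadjusted p below 0.05, edgeR found 0 in propafenone against IgG (4.75% of all genes), 1 higher and 3 lower in anti-PD-1 against IgG (7.58%), 1 higher and 7 lower in combination against anti-PD-1 (9.78%), and 1 lower in the interaction (3.04%).

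**Figure D5:**
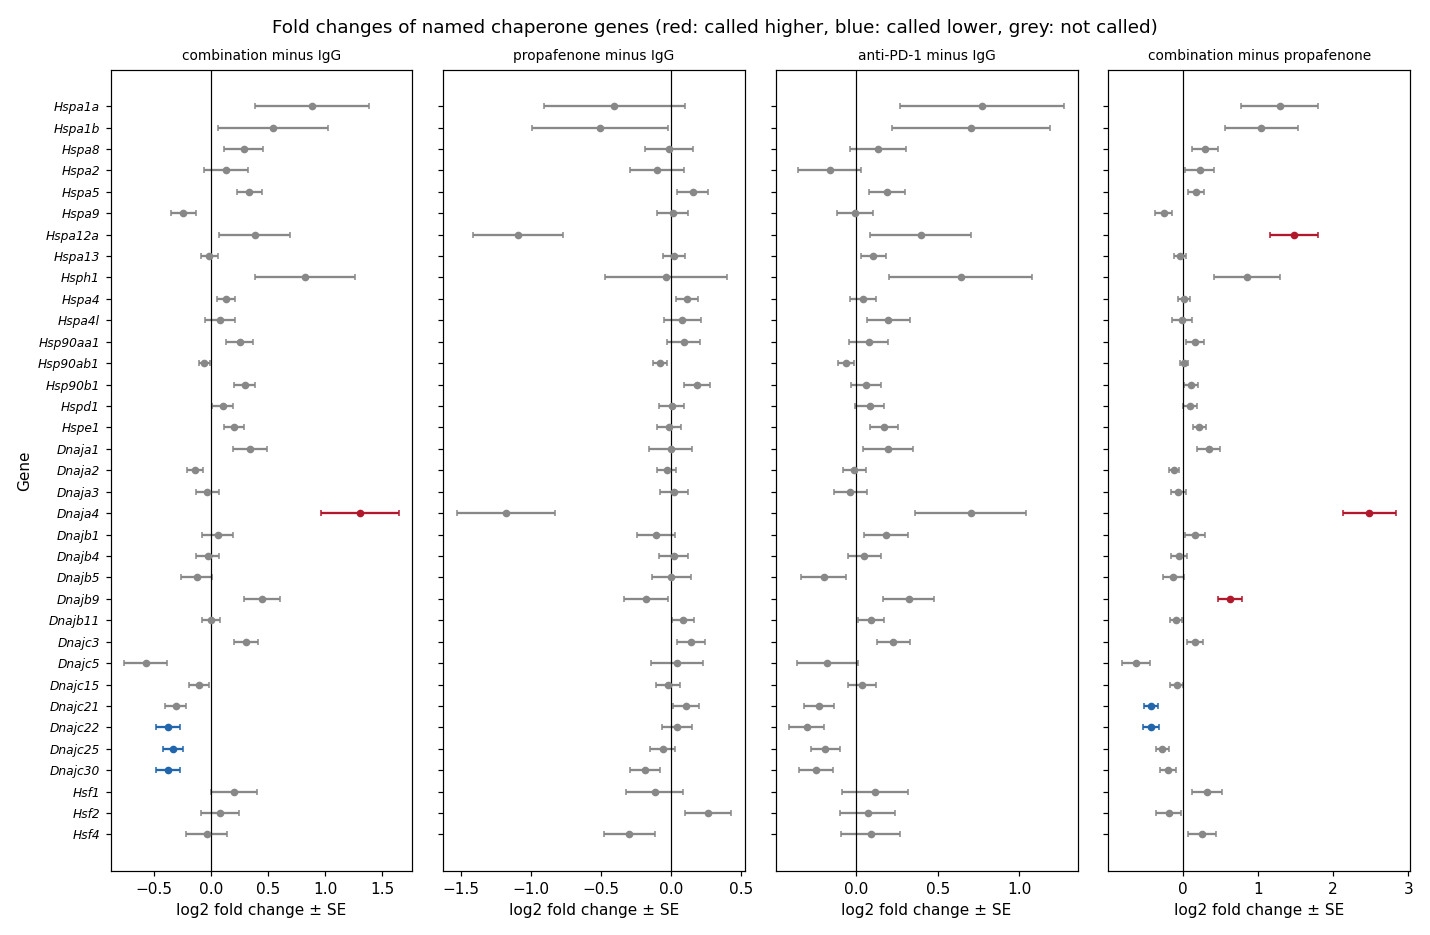
Log2 fold changes with their standard errors for 35 named genes in 4 comparisons, from edgeR. Red marks genes called higher, blue genes called lower and grey genes that did not pass. Dnaja4 is called in combination against IgG (1.30) and against propafenone (2.48) and is not called in either single treatment.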

How the data were processed

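Bulk RNA-seq of 20 tumours (4 groups of 5) was analysed from 2 deposited tables. Libraries were made with a SMARTER mRNA-seq kit, per the labels' protocols. Reads were handled with FastQC, HISAT2 2.2.1 and SAMtools 1.9 on GRCm38, per the submitters' processing notes. The counting tool, its annotation and its strand setting are not given in the sources used here, so genes that overlap on opposite strands may share counts. The authors deposited estimated counts per gene as whole numbers and a second table of TPM values, which are scaled by transcript length and to the same total in every tumour. Low values of 4 and its multiples were frequent, so counts may be repeats of single fragments, and counts divided by 4 were tried.

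Genes passing filterByExpr (15875, holding 99.98% of counts) were fitted in all 20 libraries with the quasi-likelihood test of edgeR 4.0.16 (R 4.3.3, TMM scaling, robust, 16 residual degrees of freedom). P-values were adjusted by Benjamini-Hochberg over all tested genes, and calls were made at adjusted p below 0.05. CPM used TMM-scaled totals. Fold changes are the named first group over the second. The interaction is combination minus propafenone minus anti-PD-1 plus IgG. DESeq2 1.42.0, limma 3.58.1 and other settings served as alternatives, and the code was tested on simulated data. Lists are described by counts and medians. Co-variation used log2(CPM + 0.5) values with group means removed.

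All 71 member identifiers were found in GENCODE M21, and 1 member, which enters the counts, is not reported here by itself. Members, gene lists and tests were chosen with earlier results of these data known. Named genes were the called members, the 3 with the smallest p in each direction where fewer than 3 passed, and a fixed panel of 29 chaperone genes, and others are named where their group or their ranges are described. Whether replicate numbers pair tumours was checked over 30 pairs: the mean correlation of deviations from group means was -0.0074 (range -0.483 to 0.521), so tumours were treated as unpaired. No 2 libraries of a group agreed within sampling noise.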

Additional observations from a re-analysis of the deposited data

Results flagged for a closer look

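Of 136 gene and group pairs looked at (34 genes), 10 had 1 tumour far from the other 4 of its group, and chance alone flags about 1 in 20. All values are CPM. The highest tumour was far above the rest for Dnajc22 in combination replicate 3 (34.2, others 24.6 to 27.4) and in IgG replicate 1 (45.4, others 32.3 to 36.0). In propafenone replicate 4, Dnajc3 (244, others 181 to 194) and Hspa1a (7.57, others 0.912 to 2.57) were high and Hsf2 was low (16.4, others 24.8 to 27.7). Leaving out that tumour raised the members called between combination and propafenone to 9. In anti-PD-1 tumours, Dnaja2 was high in replicate 3 (170, others 132 to 139) and Hspa4l in replicate 1 (48.1, others 27.6 to 31.9). In IgG tumours, Hsp90b1 was low in replicate 1 (841, others 1084 to 1176), Hspa8 was low in replicate 2 (1691, others 2305 to 2532) and Hspa9 was high in replicate 2 (822, others 600 to 651).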

How the results depend on the processing

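No called member changed sign in any of 224 alternative fits of the 9 called values, but many calls were lost, 62 times in fits without 1 tumour and 48 times in others. For combination against IgG, 4 members were called in the fit reported, 1 with size factors of DESeq2 type, 1 with no filter on low counts, 1 with a mean of at least 1 CPM, 0 with the muscle score as a covariate, 10 with DESeq2, 10 without 5 tumours above 1000 CPM of Hbb-bs (7 higher, 3 lower) and 11 with only the groups compared. Leaving out any 1 tumour gave 0 to 2. For combination against propafenone, 5 members were called in the fit reported, 3 with library totals, 3 with log2(TPM + 1), 3 with log2(TPM + 0.1), 2 with log2(TPM + 1) and no filter, 8 with only the groups compared and 0 without the 4 tumours of low Hsph1. Leaving out 1 tumour gave 1 to 9, with 9 without propafenone replicate 4, 4 without propafenone replicate 2, and 1 to 3 without any other. The 3 TPM settings called 4 or 5 members higher and 0 lower against IgG. Replicate numbers did not pair the tumours; with the replicate number as a block, 4 and 6 members were called, and 7 of 20 tumours correlated best with their own number. The other 4 comparisons called 0 members in every setting run; the interaction could not be fitted with only the groups compared, as it uses all of them. Of 185 named values that did not pass, 14 passed in some setting. The causes were not tested. Library totals moved the median of all genes against IgG to 0.059, from -0.012. Members near or below 1 CPM, such as Dnaja4 and Hspa12a, rest on few counts, which limits their precision.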
